A study of Homo sapiens with 4 samples.

Results

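The human alkaline phosphatase genes are a family of 4, and they were described here across 4 RNA-Seq libraries of FaDu, a long-established cell line derived from a hypopharyngeal carcinoma of squamous type. The members were the rows of the expression table that carried the symbols ALPP, ALPPL2, ALPI or ALPL on an assembled chromosome, which gave 4 of 62077 rows. The family was selected on a measured value, since ALPP was among the largest gains after TET1 knockdown. The TET1-si responses of ALPP are therefore given as a description. TET1 encodes an enzyme that oxidizes 5-methylcytosine in DNA.

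The cells held a scrambled control construct or a construct against TET1 (TET1-si), which the study's methods describe as short hairpin RNAs delivered by lentivirus. They were grown in air with 5% CO2 (normoxia, N-scr and N-si) or were moved to 1% O2 with 5% CO2 for 19 h (hypoxia, H-scr and H-si). Each of the 4 groups held 1 library of 1 cell line, so differences are between single libraries, and no test was run. Culture, library and treatment cannot be told apart. The depth recovered from the values was 22500000 to 24520000 reads a library.

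Alkaline phosphatases are homodimeric zinc and magnesium enzymes that remove phosphate groups from many substrates at alkaline pH. They sit on the outer face of the plasma membrane through a glycosylphosphatidylinositol (GPI) anchor. ALPP encodes the placental enzyme of the syncytiotrophoblast, ALPPL2 the placental-like germ cell enzyme (also called ALPG), and ALPI the intestinal enzyme of the enterocyte brush border. ALPL encodes the tissue-nonspecific enzyme of bone, liver and kidney, which degrades pyrophosphate during mineralization and dephosphorylates vitamin B6 outside cells. The placental and germ cell enzymes are also known as ectopic products of some carcinomas.

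In the hg19 assembly, which the expression table used, 3 members stand close together on the plus strand of chromosome 2. ALPP lies at chr2:233243244-233247599, ALPPL2 at chr2:233271553-233275424 and ALPI at chr2:233320833-233324742. ALPL lies apart, on the plus strand at chr1:21835858-21904905. The 250 bases before the start of each canonical transcript are printed below because TET1 acts on methylated CG pairs and the comparison includes hypoxia. They were read from hg19 at chr2:233243211-233243460, chr2:233271304-233271553, chr2:233320613-233320862 and chr1:21835666-21835915. The loci above begin before these transcript starts, so the windows run into them. The ALPP window does so over most of its length, those of ALPI and ALPL in part, and that of ALPPL2 only at its last base. Capitals mark CG pairs, the hypoxia-inducible factor core (ACGTG or GCGTG) and the GC box (GGGCGG), the last 2 on either strand, and a CG pair inside a motif is part of the same run of capitals.
ALPP: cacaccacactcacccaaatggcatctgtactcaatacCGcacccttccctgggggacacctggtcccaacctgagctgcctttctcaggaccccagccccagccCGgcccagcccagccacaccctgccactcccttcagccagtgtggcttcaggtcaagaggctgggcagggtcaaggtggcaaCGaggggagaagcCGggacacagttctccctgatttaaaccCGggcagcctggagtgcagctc
ALPPL2: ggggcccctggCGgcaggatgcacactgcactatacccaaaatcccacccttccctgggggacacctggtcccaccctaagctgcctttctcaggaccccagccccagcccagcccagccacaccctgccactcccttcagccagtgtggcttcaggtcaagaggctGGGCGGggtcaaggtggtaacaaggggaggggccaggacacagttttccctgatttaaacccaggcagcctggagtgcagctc
ALPI: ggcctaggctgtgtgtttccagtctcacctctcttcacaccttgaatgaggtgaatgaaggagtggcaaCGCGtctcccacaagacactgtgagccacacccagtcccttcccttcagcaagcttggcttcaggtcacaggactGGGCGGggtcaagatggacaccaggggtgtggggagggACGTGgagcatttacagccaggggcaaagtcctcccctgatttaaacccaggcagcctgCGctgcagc
ALPL: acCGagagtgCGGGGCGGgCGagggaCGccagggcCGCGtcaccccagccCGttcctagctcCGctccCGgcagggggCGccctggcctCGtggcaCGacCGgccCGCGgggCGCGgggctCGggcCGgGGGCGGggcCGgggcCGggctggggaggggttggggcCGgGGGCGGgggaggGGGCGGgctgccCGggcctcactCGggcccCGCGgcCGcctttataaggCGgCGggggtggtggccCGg

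The ALPP window held 5 CG pairs, the ALPPL2 window 2 and the ALPI window 5. Among 19077 promoter windows of the same length, the median was 18 CG pairs, and 18.4%, 7.25% and 18.4% of the windows held fewer than ALPP, ALPPL2 and ALPI. The ALPL window held 34, more than 90.0% of windows. The hypoxia-inducible factor core was found in 1 window of the 4, that of ALPI, against 51.6% of all windows. The GC box was found 0 times before ALPP, 1 time before ALPPL2, 1 time before ALPI and 4 times before ALPL, and 60.0% of all windows held it. These matches describe letters only, and DNA methylation at the 4 windows was not analysed here.

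The chromosome 2 members are close copies, which bears on how reads can be assigned to them. The coding sequence of ALPP was identical to that of ALPPL2 at 97.8% of 1596 aligned bases, with 35 mismatches. It was identical to that of ALPI at 89.7% and to that of ALPL at 69.3%. Reads were 100 bases long. Of the 2655 windows of 100 bases in the ALPP transcript, 379 (14.3%) also stood unchanged in the ALPPL2 transcript, where they made up 15.8% of 2393 windows. No other pair of members shared a window of that length. The longest coding stretch shared by ALPP and ALPPL2 was 192 bases of exon 9, at chr2:233245550-233245741 in ALPP and chr2:233273631-233273822 in ALPPL2. The copy in ALPI, at chr2:233322927-233323118, differed at 19 bases, shown in capitals beneath it.
ALPP and ALPPL2: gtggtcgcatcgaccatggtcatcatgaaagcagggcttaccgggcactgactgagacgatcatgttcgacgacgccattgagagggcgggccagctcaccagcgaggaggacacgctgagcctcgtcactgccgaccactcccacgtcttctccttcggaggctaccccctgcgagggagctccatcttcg
ALPI: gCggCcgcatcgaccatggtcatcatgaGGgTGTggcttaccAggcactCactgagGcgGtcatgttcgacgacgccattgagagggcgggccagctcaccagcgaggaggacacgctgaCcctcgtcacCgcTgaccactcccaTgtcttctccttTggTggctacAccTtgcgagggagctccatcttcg

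TET1 itself, the knockdown target, was low in every library (ENSG00000138336, chr10:70320413-70454239). Its level was 0.129 FPKM in scrambled and 0.0493 in TET1-si cells under normoxia, and 0.331 and 0.122 under hypoxia, on about 27, 11, 74 and 25 reads. FPKM relates the fragments counted for a gene to its exon length and to the sequencing depth of the library. TET1 was lower in the TET1-si library under each condition, with ratios of scrambled to TET1-si of 2.63 in normoxia and 2.71 in hypoxia. The 95% counting interval of TET1-si over scrambled was 0.171 to 0.795 in normoxia and 0.224 to 0.586 in hypoxia. Intervals here and below are exact, rest on approximate reads per gene, and cover counting error only.

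ALPP was the family's most abundant member in all 4 libraries and carried nearly all of its signal in H-si. Its level (ENSG00000163283) was 0.502 FPKM in the scrambled library under normoxia (counting interval 0.334 to 0.716) and 1.96 in the TET1-si library (1.63 to 2.35), and under hypoxia 0.956 (0.735 to 1.24) and 21.8 (20.6 to 23.1). About 29, 122, 60 and 1246 reads stood behind these levels. None of these 4 intervals overlapped another, and from low to high the libraries ran N-scr, H-scr, N-si, H-si.

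**Figure D1:**
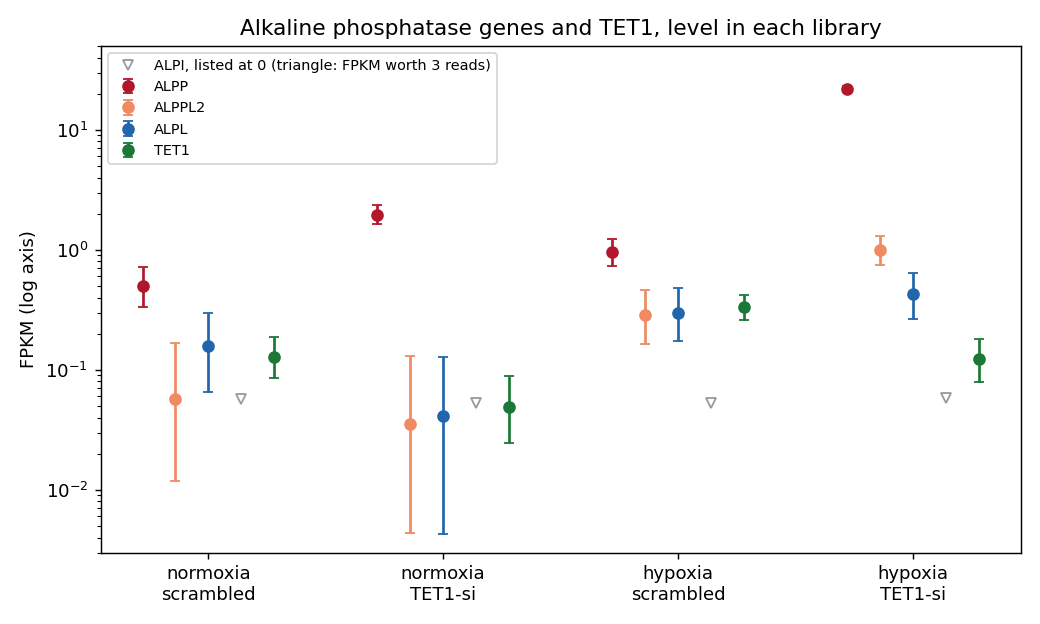
Level of each alkaline phosphatase gene and of TET1 in each library, in FPKM on a log axis, with bars for the 95% exact counting interval of that 1 library and open triangles for the FPKM worth 3 reads where ALPI was listed at 0. ALPP stands at 21.8 FPKM in H-si, above 0.502 to 1.96 FPKM in the other libraries, and ALPPL2 and ALPL stay under 1 FPKM throughout.

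The TET1-si library was higher in ALPP under hypoxia by 22.8-fold (counting interval 17.5 to 29.8) and under normoxia by 3.90-fold (2.61 to 6.13). On the log2(FPKM + 0.1) scale, which shrinks the change of low genes, these differences were 4.38 and 1.77. Of 15057 genes with a mean of at least 1 FPKM, 105 (ALPP included) had as large a TET1-si gain under hypoxia and 596 as large a gain under normoxia. In the same set the share of genes higher in TET1-si by 2-fold or more was 12.0% under hypoxia and 12.1% under normoxia, and the share lower was 8.35% and 5.56%. Genes higher in TET1-si were 59.0% of those past 2-fold under hypoxia and 68.6% under normoxia, and 47.0% and 56.0% after median-of-ratios scaling, which took the median of all genes from 0.10 to -0.03 and from 0.15 to 0.00. ALPP differed by 4.23 and 1.63 after that scaling. ALPP is the only member with a mean of at least 1 FPKM, so the family adds 1 gene to those shares.

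Hypoxia against normoxia was a contrast that the choice of ALPP used in part, since H-si stands in it. ALPP was 1.90-fold higher in H-scr than in N-scr (counting interval 1.22 to 3.12) and 11.1-fold higher in H-si than in N-si (9.21 to 13.5). The log2(FPKM + 0.1) differences were 0.81 and 3.41, and the hypoxia response in TET1-si cells exceeded that in scrambled cells by 2.60. A gain of 0.81 or more in scrambled cells was seen in 2591 of 15057 genes, and a gain of 3.41 or more in TET1-si cells in 141. The share of genes at least 2-fold higher in hypoxia was 12.9% in scrambled and 12.5% in TET1-si cells, and the share at least 2-fold lower was 4.53% and 8.66%. In rank among protein-coding rows, ALPP stood above 37.1% of them in normoxic scrambled cells, 44.1% in normoxic TET1-si cells, 38.1% in H-scr and 72.9% in H-si.

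ALPPL2, the germ cell enzyme, was near the limit of detection in normoxia and measurable in hypoxia. Its level (ENSG00000163286) was 0.0573 FPKM in scrambled and 0.0357 in TET1-si cells under normoxia, and 0.285 and 0.993 under hypoxia, on about 3, 2, 16 and 51 reads. The hypoxic libraries were thus above both normoxic ones. In H-si it was 3.48-fold higher than in H-scr (counting interval 1.95 to 6.53). Under normoxia the TET1-si to scrambled ratio was 0.623, with an interval of 0.0522 to 5.45, which holds no change as well as a several-fold change in either direction. The hypoxia ratio was 4.98 in scrambled cells (1.43 to 26.7) and 27.8 in TET1-si cells (7.29 to 235).

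The mean level of ALPPL2 was 0.343 FPKM, under the minimum of 1 used for counts over genes. The log2(FPKM + 0.1) differences for ALPPL2 were 1.50 and -0.21 for TET1-si under hypoxia and normoxia, and 1.29 and 3.01 for hypoxia in scrambled and TET1-si cells. ALPPL2 made up 9.38% of the reads of the 2 placental-type genes in scrambled (interval 1.98% to 25.0%) and 1.61% in TET1-si cells (0.196% to 5.70%) under normoxia, and 21.1% (12.5% to 31.9%) and 3.93% (2.94% to 5.14%) under hypoxia. ALPP, whose gain in H-si chose the family, is in the denominator of this share, so the shares are a description only. Because part of each transcript is shared, the split between ALPP and ALPPL2 depends on how the authors' counting divided common reads. Summed over both genes, the level was 0.559 FPKM in scrambled and 1.99 in TET1-si cells under normoxia, and 1.24 and 22.8 under hypoxia, which keeps the order of ALPP alone.

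ALPI, the intestinal enzyme, was listed at 0 in all 4 libraries (ENSG00000163295). As a floor, a count of 0 was taken to allow up to 3 reads, which is 0.0568 FPKM in scrambled and 0.0532 in TET1-si cells under normoxia, and 0.0531 and 0.0578 under hypoxia. The upper limit of the exact interval used for the other genes is higher, at 0.0653 to 0.0711 FPKM over the libraries. No fold is given for ALPI.

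ALPL, the tissue-nonspecific enzyme, was low throughout and followed another order. Its level (ENSG00000162551) was 0.158 FPKM in scrambled and 0.0411 in TET1-si cells under normoxia, and 0.296 and 0.429 under hypoxia, on about 8, 2, 17 and 22 reads. N-si held the lowest listed level of ALPL and the next to highest of ALPP. The TET1-si to scrambled ratio was 1.45 under hypoxia (counting interval 0.715 to 2.83) and 0.261 under normoxia (0.0242 to 1.17), and both intervals included a ratio of 1. The hypoxia ratio was 1.88 in scrambled cells (0.812 to 5.31) and 10.4 in TET1-si cells (2.94 to 105), the last resting on 2 reads in N-si. The log2(FPKM + 0.1) differences of ALPL were 0.42, -0.87, 0.62 and 1.91 in the same order.

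**Figure D2:**
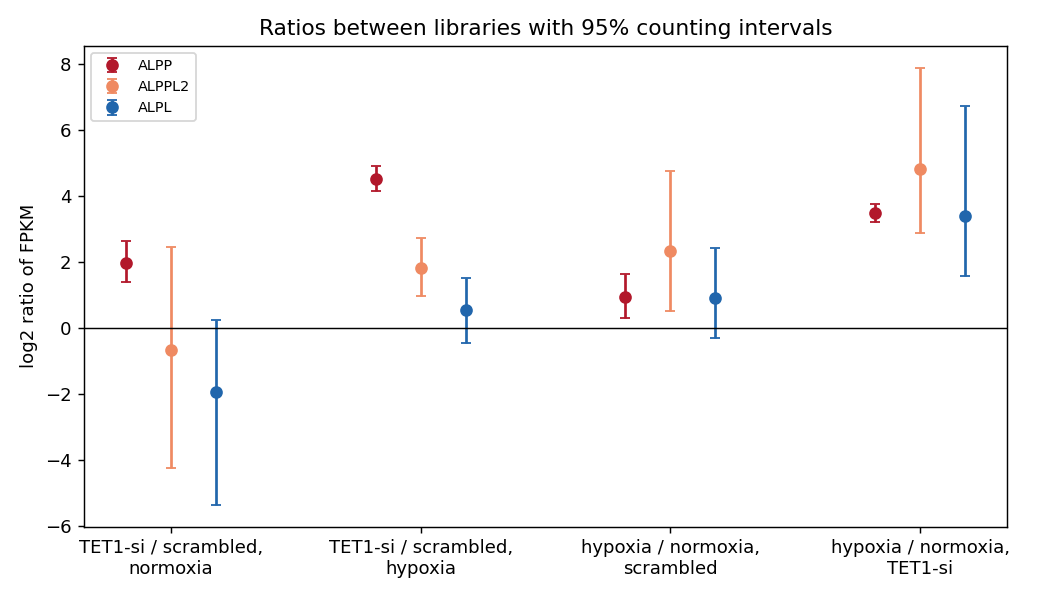
Log2 ratio of FPKM between 2 libraries, without a pseudocount, for ALPP, ALPPL2 and ALPL in 4 contrasts, with bars for the 95% exact counting interval of the ratio. ALPP lies above 0 in all 4, at 4.51 for TET1-si under hypoxia, while the ALPL interval includes 0 in each contrast except hypoxia in TET1-si cells.

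Across members, H-si held the highest listed level of ALPP, ALPPL2 and ALPL. For ALPL the counting interval of H-si (0.264 to 0.638) overlapped that of H-scr (0.174 to 0.478), so these 2 libraries could not be ordered. ALPP in H-si chose the family, and ALPPL2 has part of its transcript in common with ALPP, so this is a description only. In H-si the levels of ALPP, ALPPL2 and ALPL stood in the order 21.8, 0.993 and 0.429 FPKM, with counting intervals that did not overlap (20.6 to 23.1, 0.741 to 1.31 and 0.264 to 0.638). In H-scr ALPPL2 (0.164 to 0.465) and ALPL (0.174 to 0.478) could not be ordered.

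A non-coding gene, AC068134.8 (ENSG00000224516), lies on the minus strand inside the ALPP locus at chr2:233244345-233246384. Its level was 0 in scrambled and 0.571 FPKM in TET1-si cells under normoxia, and 0.152 and 6.35 FPKM under hypoxia, on about 0, 4, 1 and 38 reads. It was highest in the library where ALPP was highest, and ALPP stood 3.43 times above it in N-si and in H-si. In H-scr, on about 1 read of AC068134.8, that ratio was 6.28, and N-scr gave no ratio because AC068134.8 was at 0. Strand-specific counting is not stated in the sources used here, so reads from ALPP and from AC068134.8 cannot be told apart.

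Within 250 kb of ALPP, ALPPL2 or ALPI, 7 genes had a mean of at least 1 FPKM, and of these AC068134.8 alone was at least 2-fold higher in TET1-si under hypoxia. AC068134.8 reached the mean of 1 FPKM only through H-si, where it was high. The remaining 6 differed by -0.17 to 0.38 on the log2(FPKM + 0.1) scale. DIS3L2, a 3′ to 5′ exoribonuclease gene 34.2 kb away, was at 10.5, 13.7, 11.0 and 14.3 FPKM in normoxia (N-scr, N-si) and hypoxia (H-scr, H-si). EIF4E2, a cap-binding protein gene 90.0 kb away, was at 86.8, 126, 73.2 and 91.8 FPKM in the same order. GIGYF2, whose protein partners EIF4E2 in translational repression, was at 42.6, 49.1, 43.1 and 48.7 FPKM, 237 kb away. TIGD1, AC068134.10 and AC073254.1 differed in TET1-si under hypoxia by 0.25, 0.03 and -0.17. Within 1 Mb, 2 of 19 genes were higher by 2-fold or more and 2 were lower under hypoxia, with a median of 0.11 against 0.10 over all genes. Under normoxia 3 were higher and 3 lower, with a median of 0.20 against 0.15. For all genes, the share higher was 12.0% and the share lower 8.35% under hypoxia, against 12.1% and 5.56% under normoxia. The lower genes under hypoxia were SNORA75 and SCARNA6, genes of small nucleolar RNAs, named here after their values were seen. Both were listed at 0 in H-si, against 16.6 and 2.68 FPKM in H-scr. SNORA75 was also listed at 0 in N-scr and is among the 3 higher under normoxia. The higher genes under hypoxia were AC068134.8 and INPP5D, the latter named here after its values were seen. INPP5D, a gene of an inositol phosphatase 600 kb away, was at 0.567 and 2.19 FPKM in normoxia and at 1.18 and 7.98 FPKM in hypoxia, scrambled before TET1-si. Its TET1-si differences were 1.78 under normoxia and 2.65 under hypoxia, beside 1.77 and 4.38 for ALPP, and its libraries stood in the order of those of ALPP.

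**Figure D3:**
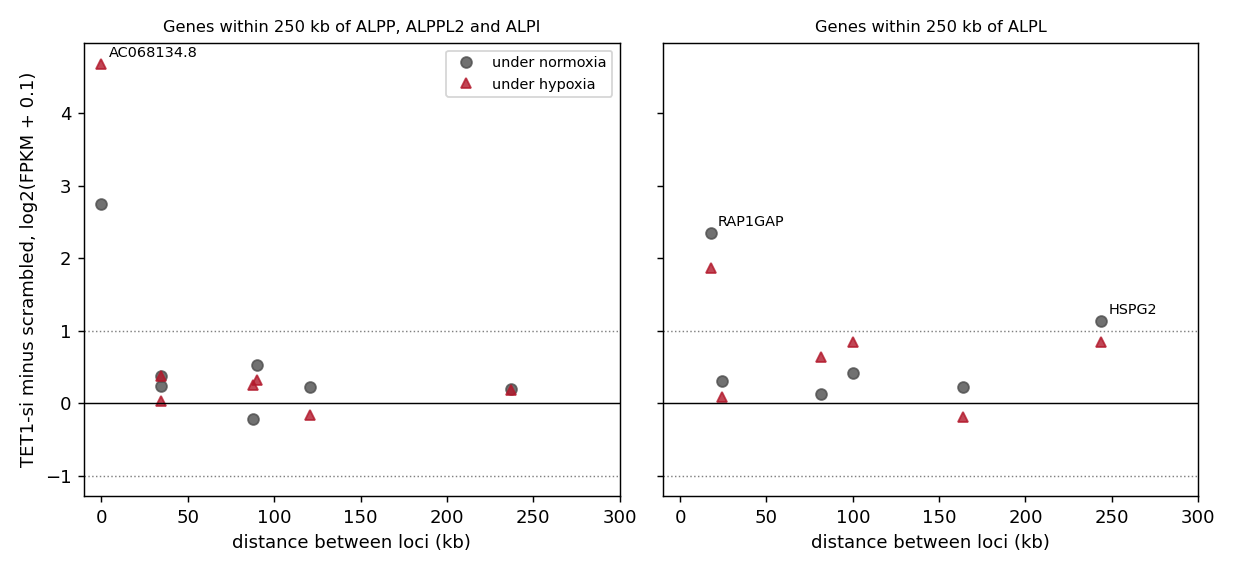
TET1-si minus scrambled on the log2(FPKM + 0.1) scale for genes within 250 kb that had a mean of at least 1 FPKM, against the distance of their locus from the nearest alkaline phosphatase locus in kb, with the chromosome 2 cluster left and ALPL right and dotted lines at 2-fold. On the left only AC068134.8, at 4.68 under hypoxia, lies past 2-fold, and on the right RAP1GAP (both conditions) and HSPG2 (normoxia) do.

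Around ALPL, 6 genes within 250 kb had a mean of at least 1 FPKM. RAP1GAP, a gene for a GTPase-activating protein of Rap1 that lies 17.8 kb beyond ALPL, was at 1.16 FPKM in scrambled and 6.34 in TET1-si cells under normoxia, and 3.41 and 12.7 under hypoxia. It was higher in TET1-si than in scrambled cells in both conditions, by 2.35 in normoxia and 1.87 in hypoxia on the log2(FPKM + 0.1) scale, where ALPL differed by -0.87 and 0.42. HSPG2, the gene of the basement membrane proteoglycan perlecan, was at 1.23, 2.80, 3.24 and 5.92 FPKM and differed by 1.13 and 0.85. NBPF3, NBPF2P, USP48 and ECE1 differed in TET1-si under hypoxia by 0.09, 0.64, 0.84 and -0.19, all under 2-fold. Within 1 Mb of ALPL, 3 of 20 genes were higher by 2-fold or more and 2 were lower under hypoxia (median -0.06). Under normoxia the counts were 4 and 2 (median 0.11). The lower genes under hypoxia were CDA and SH2D5, named here after their values were seen. Both reached the mean of 1 FPKM only through H-scr, where they were high (15.2 and 2.81 FPKM). Their place among the lower genes under hypoxia thus follows from the filter. The medians over all genes were 0.10 and 0.15, and the counts are set beside shares over all genes of 12.0% higher and 8.35% lower under hypoxia, and 12.1% and 5.56% under normoxia.

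Alkaline phosphatases need a GPI anchor to reach the cell surface. All 30 listed genes for GPI anchor synthesis and attachment had a mean of at least 1 FPKM. In TET1-si under hypoxia 5 were at least 2-fold higher and 1 lower, with a median of 0.21 against 0.10 over all genes, and under normoxia 5 were higher and 0 lower, with a median of 0.32 against 0.15. The share of 5 in 30 is set beside 12.0% and 12.1% of all genes, and the counts of 1 and 0 lower beside 8.35% and 5.56%. After median-of-ratios or upper-quartile scaling the count higher under hypoxia was 3. PIGP, a subunit of the enzyme that begins the anchor, was at 10.5 FPKM in scrambled and 29.2 in TET1-si cells under normoxia, and 8.99 and 25.6 under hypoxia. PGAP3, which remodels the lipid of the finished anchor, was at 4.82, 12.8, 9.12 and 24.9 FPKM. Both genes were higher in each TET1-si library than in either scrambled library. PIGK, the catalytic subunit of the transamidase that attaches the anchor to proteins, went the other way, at 41.5, 23.8, 21.2 and 10.4 FPKM. The other 3 genes past 2-fold higher under hypoxia were PIGC, PIGL and DPM3, named here after their values were seen.

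Of 19 listed genes for phosphate and pyrophosphate handling, 18 were found and 10 had a mean of at least 1 FPKM. In TET1-si under hypoxia 0 of the 10 were at least 2-fold higher and 2 lower, with a median of -0.18, and under normoxia 0 were higher and 1 lower, with a median of -0.02. The all-gene share higher was 12.0% under hypoxia and 12.1% under normoxia, the share lower was 8.35% and 5.56%, and the medians were 0.10 and 0.15. Those 2 were the sodium-phosphate cotransporters SLC20A2 and SLC20A1, which carry phosphate into cells. SLC20A2 was at 163 FPKM in scrambled and 69.6 in TET1-si cells under normoxia, and 175 and 67.7 under hypoxia, with both TET1-si libraries under both scrambled ones. SLC20A1 was at 47.3, 29.1, 45.8 and 20.4 FPKM, likewise with both TET1-si libraries under both scrambled ones. Among 5 genes of vitamin B6 salvage, 4 had a mean of at least 1 FPKM, with 1 higher and 1 lower in TET1-si under hypoxia and 0 past 2-fold in either direction under normoxia. The higher gene was PROSC, a pyridoxal phosphate-binding protein gene, at 41.5, 63.7, 18.9 and 55.5 FPKM. The lower gene was PDXP, a pyridoxal phosphate phosphatase gene, at 22.2, 11.5, 12.6 and 4.39 FPKM.

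**Figure D4:**
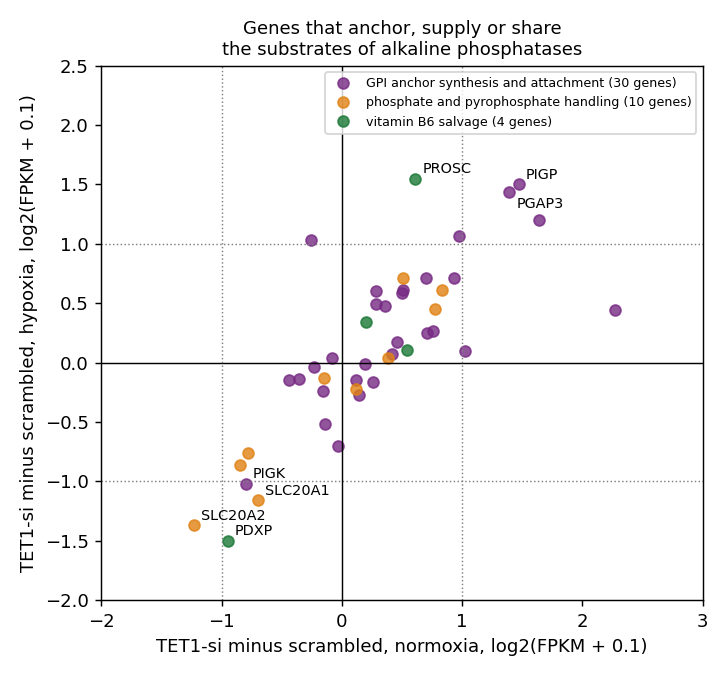
TET1-si minus scrambled under normoxia (horizontal) and hypoxia (vertical), both as log2(FPKM + 0.1), for 30 genes of GPI anchoring, 10 of phosphate handling and 4 of vitamin B6 salvage, with dotted lines at 2-fold. PIGP and PGAP3 lie past 2-fold in both conditions, SLC20A2 lies under it in both, and most points lie within the dotted lines.

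The cell types in which the members are known were also looked for. All 12 squamous epithelial markers had a mean of at least 1 FPKM, with sums of 8222, 3132, 11493 and 5846 FPKM in normoxia (N-scr, N-si) and hypoxia (H-scr, H-si). Within that list KRT14, a basal keratin gene, was at 42.1 FPKM in scrambled and 0.487 in TET1-si cells under normoxia, and 99.9 and 1.41 under hypoxia, and the adherens junction gene CDH1 was at 179, 267, 292 and 399 FPKM. KRT14 moved with TET1-si in the direction opposite to ALPP, while CDH1, JUP and EPCAM were higher in TET1-si in both conditions, as ALPP was. KRT19 was lower in TET1-si under normoxia and higher under hypoxia, and the remaining markers were lower in both. The markers thus did not move together, and the part of epithelial state in the ALPP difference was not tested. Of 6 trophoblast markers, 0 had a mean of at least 1 FPKM, CGA and HSD3B1 were at 0 in every library, and the sum was 0.171 to 0.508 FPKM. Of 5 enterocyte markers, 0 had such a mean, SI, APOA4 and FABP2 were at 0, and the sum was 0.0103 to 0.185 FPKM. Of 4 germ cell markers, DDX4 and DPPA3 were at 0 and POU5F1 alone passed 1 FPKM. Of the 3 osteoblast markers, 0 had a mean of at least 1 FPKM. Among them BGLAP was at 0.334, 0.621, 0.477 and 1.20 FPKM, with its libraries in the order of those of ALPP. IBSP and SP7 were at 0.163 FPKM or less. The part of BGLAP in the ALPP difference was not tested.

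Leukocyte markers were at or near 0, with sums of 0 to 0.0642 FPKM over 3 genes. Of the endothelial markers, CDH5 was at 8.75, 21.7, 16.0 and 45.5 FPKM while KDR was at 0 to 0.0434 FPKM. Of 4 fibroblast markers, COL1A1 was at 5.29, 14.0, 28.6 and 37.0 FPKM, while COL1A2 and LUM were at 0 and PDGFRB reached 0.0161 FPKM. CDH5 and COL1A1 were higher in TET1-si than in scrambled cells in both conditions, as ALPP was, and their part in the ALPP difference was not tested.

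Wider lists for the same tissues gave few measurable genes. Of 32 trophoblast genes, 8 had a mean of at least 1 FPKM, and 4 of the 8 were at least 2-fold higher in TET1-si under hypoxia and 0 lower (median 0.89), while under normoxia 3 were higher and 0 lower (median 0.36). For all genes, the share higher was 12.0% and the share lower 8.35% under hypoxia, against 12.1% and 5.56% under normoxia. PSG9 and PSG4 reached the mean of 1 FPKM only through H-si, where they were high, so their place among the 4 follows from the filter and the count supports nothing about the list. With a mean of at least 5 FPKM the count was 2 of 5 genes. PSG9 and PSG4, genes of pregnancy-specific glycoproteins that have near-identical relatives among which reads may be split, had the largest gains. PSG9 was at 0.0716, 0.878, 0.413 and 3.10 FPKM in normoxia (N-scr, N-si) and hypoxia (H-scr, H-si). PSG4 was at 0.111, 1.12, 0.191 and 2.90 FPKM, and for both genes H-si was the highest library, as it was for ALPP. Of 16 germ cell and pluripotency genes, 4 had a mean of at least 1 FPKM, 1 being higher and 2 lower under hypoxia (median -0.47) and 1 higher and 1 lower under normoxia (median 0.17). Against 12.0% and 8.35% of all genes under hypoxia, and 12.1% and 5.56% under normoxia, 4 genes are too few to read a share from. TFCP2L1, a pluripotency transcription factor gene, was at 0.657, 2.86, 0.474 and 1.75 FPKM, above 1 FPKM in the TET1-si libraries alone. SOX2 was at 12.0, 1.35, 6.20 and 1.59 FPKM and POU5F1 at 16.8, 18.4, 12.4 and 4.04 FPKM, so SOX2 was lower in both TET1-si libraries and POU5F1 in H-si.

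Of 19 osteoblast and mineralization genes, 6 had a mean of at least 1 FPKM, with 0 higher and 2 lower in TET1-si under hypoxia (median -0.21) and 1 higher and 1 lower under normoxia (median 0.11). Over all genes the shares were 12.0% and 8.35% under hypoxia, and 12.1% and 5.56% under normoxia. The lower genes were RUNX2, a transcription factor gene of osteoblasts, at 1.02, 0.759, 2.09 and 0.670 FPKM, and BMP2, a bone morphogenetic protein gene, at 2.26, 0.459, 3.22 and 0.842 FPKM. RUNX2 reached the mean of 1 FPKM only through H-scr, and BMP2 was above 1 FPKM in the scrambled libraries alone. Of 20 enterocyte genes, KLF4 alone had a mean of at least 1 FPKM, and it differed in TET1-si by -0.17 under hypoxia and 0.26 under normoxia.

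The genes whose pattern over the 4 libraries was most like that of ALPP were found by the smallest Euclidean distance between centred log2(FPKM + 0.1) values, among 11906 protein-coding genes. They were SMIM1, SMIM5, MAP7D2, CACNA1I and ZNF750, at distances of 0.63, 0.79, 0.98, 0.99 and 1.02. SMIM1, the gene of the Vel blood group antigen, was at 0.157 FPKM in scrambled and 0.613 in TET1-si cells under normoxia, and 0.147 and 7.36 under hypoxia. ZNF750, a transcription factor gene of epidermal differentiation, was at 0.301, 1.66, 0.478 and 7.03 FPKM. SMIM5 reached 5.71, MAP7D2, a microtubule-associated protein gene, 8.66, and CACNA1I, a T-type calcium channel gene, 5.93 FPKM in H-si. All 5 were highest in H-si, which follows from choosing them by their likeness to ALPP, and none lies on chromosome 2. Each of the 5 reached the mean of 1 FPKM only through H-si, where it was high.

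The genes most like ALPL, among 11907, were KYNU, ZMYND8, PTGS1, UPK3BL and DLL1, at distances of 0.18, 0.23, 0.23, 0.24 and 0.26. KYNU, which encodes kynureninase of tryptophan breakdown, was at 1.28, 0.567, 1.73 and 2.37 FPKM in normoxia (N-scr, N-si) and hypoxia (H-scr, H-si). PTGS1, the gene of cyclooxygenase-1, was at 12.0, 7.64, 22.4 and 25.4 FPKM, and DLL1, a Notch ligand gene, at 25.7, 15.3, 43.0 and 46.0 FPKM. ZMYND8 was at 30.0, 17.4, 40.0 and 56.1 FPKM and UPK3BL between 1.62 FPKM in N-si and 5.11 FPKM in H-si. Each was lowest in N-si and highest in H-si, as the listed level of ALPL was, which follows from choosing them by their likeness to ALPL. The counting intervals of ALPL overlapped between N-si and N-scr and between H-si and H-scr. The profile of ALPL itself rests on about 2 to 22 reads a library.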

How the data were processed

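RNA-Seq was deposited for 4 FaDu libraries. Per the labels, the authors made TruSeq mRNA libraries and sequenced 100-base reads on a HiSeq 2000. TopHat and Cufflinks with the hg19 assembly are named in the submitters' processing notes, and their versions are not given in the sources used here. The labels call the reads single end and the study's methods paired end. The deposited values are gene-level FPKM calculated by the authors, and 1 was added to start positions, which count from 0.

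Members and gene lists were chosen with earlier results of these data known. Changes are differences of log2(FPKM + 0.1). Counts over genes used 15057 rows with a mean of at least 1 FPKM and an ID on 1 row (232 rows had repeated IDs), and 2-fold as the size. With 1 library a group no test was run. Depth was recovered as the value that made the low FPKM of single-exon genes whole numbers of reads. Of 18321 such genes, 714 to 817 a library had a value above 0 and low enough to use. Of these values, 97.2% to 97.8% were whole within 0.05 reads. Approximate reads are FPKM times depth times transcript length (GENCODE v44lift37, within the locus of the table) less 215 bases. That is the median of the 211 to 216 bases fitted for the libraries. These gave 95% exact intervals (Poisson for a level, Clopper-Pearson for a ratio or share) and a floor of 3 reads, all for counting error only. IDs matched the annotation for 86.3% of rows. The depth search and the counts were tested on simulated data.

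Named genes were the 4 members, TET1, the 5 genes nearest in pattern to ALPP and to ALPL, expressed genes within 250 kb, the marker genes, and up to 2 genes a list in each direction with the largest 2-fold differences under hypoxia. Sequences were read from the hg19 genome, and coding sequences were aligned with Biopython 1.88. Python 3.11.15, pandas 2.3.3, NumPy 2.4.6, SciPy 1.17.1 and matplotlib 3.10.9 were used. Alternatives were pseudocounts of 0.01, 1 and none, median-of-ratios and upper-quartile scaling, TPM, other filters on low values and a 0.25 Mb window. Summing ALPP and ALPPL2 was added after seeing the data.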

Additional observations from a re-analysis of the deposited data

Results flagged for a closer look

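The TET1-si response of ALPPL2 was 1.50 under hypoxia and -0.21 under normoxia on the log2(FPKM + 0.1) scale, which set it apart because the signs were opposite. The normoxic value rests on about 3 and 2 reads, and the difference between the responses was not tested. The TET1-si response of ALPL had opposite signs as well, at 0.42 under hypoxia and -0.87 under normoxia, on about 17 and 22 reads under hypoxia and 8 and 2 under normoxia. That difference was not tested either.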

How the results depend on the processing

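The members had 94 alternative values (2 pseudocounts, no pseudocount, 3 scalings and the sum of ALPP and ALPPL2). Among them 0 changed the sign of a 2-fold difference. A pseudocount cannot change a sign, and the scale factors were too alike to reverse a 2-fold difference, so nothing is concluded from that count. Of the 94, 91 moved by no more than the counting error of the reported value. That error is wide for ALPPL2 and ALPL, so large moves of these genes are among the 91. With a pseudocount of 1, the ALPP difference for TET1-si was 3.54 under hypoxia and 0.98 under normoxia, and that for hypoxia in TET1-si cells was 2.95. For ALPPL2 that pseudocount gave 0.63 for TET1-si under hypoxia, under 2-fold, against 1.50 as reported. It also took the hypoxia response of ALPPL2 from 1.29 to 0.28 in scrambled and from 3.01 to 0.94 in TET1-si cells. That of ALPL in TET1-si cells fell from 1.91 to 0.46, so these too were then under 2-fold. A pseudocount itself shrinks low values. Over all alternatives the TET1-si response of ALPP ran from 3.54 to 4.51 under hypoxia and from 0.98 to 1.96 under normoxia, that of ALPPL2 from 0.63 to 1.80 and from -0.68 to -0.03, and that of ALPL from 0.14 to 0.54 and from -1.94 to -0.15.

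Of the 64 alternative counts over all genes 16 moved by over 1.5 times. With a pseudocount of 1, 1164 genes were higher in TET1-si under normoxia and 1237 were higher in hypoxia in scrambled cells. With no filter on low values the counts higher and lower were 4226 and 3083 for TET1-si under hypoxia, 3699 and 2299 for TET1-si under normoxia, 4517 and 1654 for hypoxia in scrambled cells, and 4803 and 2333 for hypoxia in TET1-si cells. With a mean of at least 5 FPKM they were 881 and 789 for TET1-si under hypoxia and 892 and 435 under normoxia, and the counts higher in hypoxia were 905 in scrambled and 823 in TET1-si cells. That filter tested fewer genes and its absence more. After upper-quartile scaling, 55.6% of the TET1-si differences past 2-fold under normoxia were higher.

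Of the 248 alternative counts for lists and neighbours of TET1-si differences, 43 moved by over 1.5 times. For GPI anchoring, 3 were higher under hypoxia after median-of-ratios or upper-quartile scaling, and 0 were lower with a pseudocount of 1 or as TPM. For phosphate handling, 2 were lower under normoxia after either scaling and 3 with no filter, where 1 was higher under hypoxia. For vitamin B6 salvage, 1 was lower under normoxia after either scaling. For trophoblast genes, 1 was higher under normoxia with a pseudocount of 1, 9 and 7 were higher under hypoxia and normoxia with no filter, and 2 and 1 with a mean of at least 5 FPKM. For germ cell genes, 0 were higher under hypoxia with a pseudocount of 1 and 2 with no filter, and 0 in either condition with a mean of at least 5 FPKM. For enterocyte genes with no filter, 2 were higher and 3 lower under hypoxia and 2 lower under normoxia. For osteoblast genes, 1 was lower under hypoxia with a pseudocount of 1, 0 were lower in either condition with a mean of at least 5 FPKM, and with no filter 2 were higher and 5 lower under hypoxia and 2 higher and 4 lower under normoxia. Around the chromosome 2 cluster, 1 gene was higher and 0 lower within 0.25 Mb in either condition, and with no filter 8 were higher and 4 lower under hypoxia and 6 higher and 5 lower under normoxia. Around ALPL, 1 was higher and 0 lower under hypoxia and 2 higher and 0 lower under normoxia within 0.25 Mb, and with no filter 6 were higher and 5 lower under hypoxia. With no filter the lists, in the order above, held 30, 18, 5, 32, 16, 20 and 19 genes. The 1 Mb window of the cluster held 67 and that of ALPL 57. With a mean of at least 5 FPKM the lists held 27, 8, 4, 5, 3, 1 and 2 genes. Of all 61845 genes with no filter, 4226 were higher and 3083 lower under hypoxia, and 3699 and 2299 under normoxia. Of 10786 with a mean of at least 5 FPKM, these were 881 and 789, and 892 and 435. The cause of the moved counts was not tested.

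No paired analysis was possible because each group held 1 library. Leaving out a replicate was not done for the same reason. Depth limits ALPPL2 in normoxia, on 2 to 3 reads, and ALPL, on 2 to 22 reads.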
